A study of Mus musculus with 16 samples.

Results

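Unirradiated telogen dorsal skin was compared between the 4 No-UVB male and the 4 No-UVB female mice of the series, over the autosomal genes. The members are the 16236 autosomal genes that passed an expression filter in these 8 mice, of 50541 autosomal genes with a count entry and of 55359 genes listed in all. The series holds 16 mice, all wild type C57Bl/6 by the labels (C57Bl/6N in the study's text) and aged 8 weeks, with 4 mice in each combination of sex and UVB. The No-UVB mice received no irradiation, whereas the 8 UVB mice, which are other animals, received 3 exposures, every other day, before their skin was taken. Every library is polyadenylated RNA of whole skin from 1 mouse, so that the values mix epidermis, dermis, hair follicles, fat and the muscle layer. In such bulk samples fewer cells of a type and less RNA per cell cannot be told apart. By the labels the hair follicles were resting (telogen).

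Dermal fibroblasts secrete the collagens, proteoglycans and elastic fibres that give skin its strength. Newly made procollagen chains are hydroxylated and folded in the endoplasmic reticulum, trimmed by proteases after secretion and crosslinked by lysyl oxidases. Resident T cells, Langerhans cells, dendritic cells, macrophages and mast cells share this tissue. Sebocytes, adipocytes and keratinocytes supply its lipids, and immediate early genes such as *Fos* are transcribed within minutes of a stimulus. Skin also expresses receptors for androgens and oestrogens, and the sexes are known to differ in dermal collagen content. The study asked how the skin of the sexes differs around UVB-induced migration of melanocyte stem cells, and the unirradiated mice give the state before irradiation.

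The No-UVB males had 18397821 to 23370280 reads on genes and the No-UVB females 18907420 to 28304455. Values are in CPM, counts relative to the library size as scaled by edgeR's TMM method, and a log2 difference is males minus females ± its standard error (SE). Calls rest on edgeR's quasi-likelihood test at an adjusted p under 0.1, corrected by Benjamini and Hochberg's method over all 16834 genes tested, sex chromosomes included. The labels of sex held: *Xist*, transcribed from the silenced X chromosome, was at 5.16, 2.01, 1.4 and 1.84 CPM in the males and at 1036, 1201, 1194 and 1181 CPM in the females, and the Y-linked *Kdm5d* was at 29.4, 33.7, 35.8 and 34.9 CPM in the males and at most 0.0882 CPM in any female. Keratinocyte markers were abundant, with summed levels of 6470 to 9220 CPM for 7 basal genes in males and 5480 to 8410 CPM in females. Of 22 genes of growing hair, 14 did not pass the filter. The list summed to 26.7 to 175 CPM in the males and 32.3 to 48.9 CPM in the females, so the males spread more widely. The 7 milk protein genes, which would mark mammary gland, summed to at most 0.187 CPM in any mouse.

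Of the 16236 autosomal genes, 808 (4.98%) were called higher in males and 566 (3.49%) lower. The 4 males lay above all 4 females for 1121 genes (6.9%) and below all of them for 980 (6.04%), and 732 of the 808 and 491 of the 566 called genes were without overlap. These shares over all autosomal genes are the background for the list counts given below. Most calls were small, with a median log2 difference of 0.50 among the higher genes and -0.56 among the lower ones. Past a log2 difference of 1, 150 genes (0.924%) were higher and 92 (0.567%) lower. The median over all autosomal genes was -0.01, and the quartiles were -0.15 and 0.12. Protein-coding genes made up 759 of the higher and 523 of the lower calls.

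**Figure D1:**
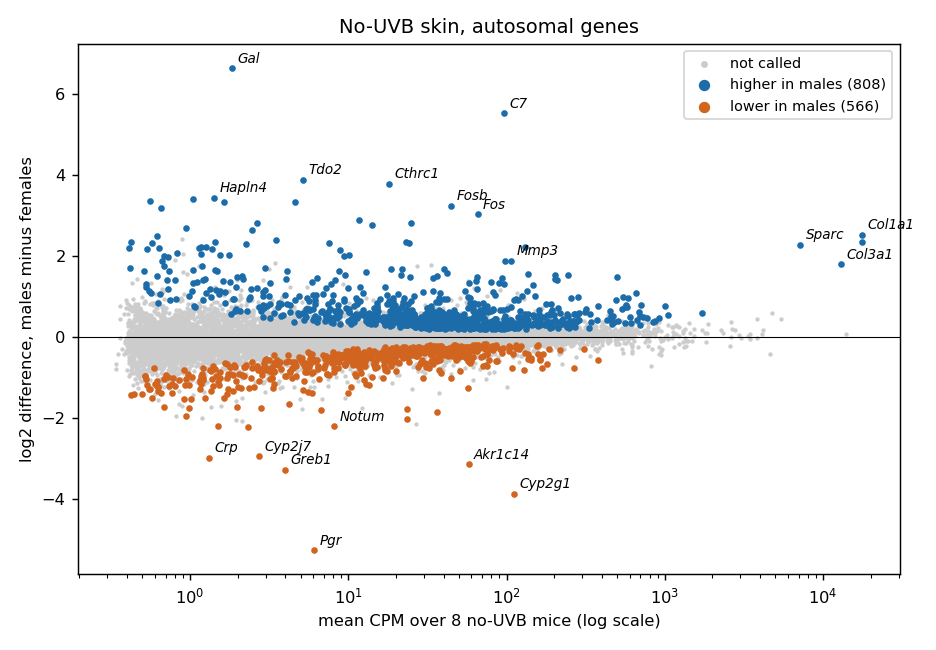
Log2 difference of males minus females in unirradiated skin (vertical axis) against mean expression in CPM on a log axis (horizontal axis) for the 16236 autosomal genes tested, with the 808 genes called higher and the 566 called lower in males in colour. Among the labelled genes, *Col1a1* and *Col3a1* have the highest levels and lie well above 0, while *Pgr*, *Cyp2g1* and *Greb1* lie lowest.

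Genes of the fibrous matrix formed the most abundant difference, and it ran in 1 direction. *Col1a1* (ENSMUSG00000001506.11, chromosome 11 of GRCm39 from 94827050 to 94843868), an alpha chain of type I collagen, was at 31233, 30874, 30032 and 27327 CPM in the males and at 4984, 5252, 5371 and 5082 CPM in the females. Every male lay over 5 times as high as any female. The means were 29866 ± 1766 and 5172 ± 173 CPM (SD, n = 4 each), a log2 difference of 2.53 ± 0.14 (adjusted p = 1.06e-05). *Col1a2*, the partner chain, was at 30832, 30574, 28734 and 27949 CPM in males against 5720.2, 5923, 6146 and 5605 CPM in females, with a difference of 2.34 ± 0.14 (adjusted p = 1.34e-05). *Col3a1*, the type III chain that co-assembles with type I in skin fibrils, was at 21120.0, 21564, 17878 and 20103 CPM against 5488, 5527, 6656 and 5477 CPM. Its difference of 1.80 ± 0.15 was smaller than that of either type I chain (adjusted p = 1.14e-04), and the groups did not overlap for any of the 3 genes. Per kilobase of exon, *Col1a1* stood at 4548 RPKM in males and 788 in females, *Col1a2* at 2334 and 462, and *Col3a1* at 1962 and 563. On that per-length scale *Col1a1* had the highest level of the 3 in both sexes.

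*Sparc* encodes a collagen-binding protein that helps procollagen into fibrils. It was at 12454, 13041, 10597 and 11507 CPM in males and 2776, 2402, 2164 and 2449 CPM in females, a difference of 2.28 ± 0.14 without overlap (adjusted p = 1.37e-05). Together, *Col1a1*, *Col1a2*, *Col3a1* and *Sparc* took 8.22 to 9.07% of the gene reads of each male and 1.9 to 2.15% of each female. With the 100 most abundant genes left out of the scaling, 816 genes were higher and 564 lower, and 806 of the 808 and 561 of the 566 calls were shared with the scaling used here.

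Of the 10 fibrillar collagens tested, 5 were higher in males, none was lower and 5 did not pass, with a list median of 0.52. Beside the 3 genes above these were the type V chains *Col5a1* (1.07 ± 0.16, adjusted p = 0.00481) and *Col5a2* (0.95 ± 0.10, adjusted p = 8.19e-04), which set the diameter of fibrils. Of 16 other interstitial collagens, 5 were higher and none lower. They were *Col6a1* (0.43) and *Col6a2* (0.49) of the beaded filaments around cells, *Col15a1* (0.59) and *Col18a1* (0.39), which border basement membranes, and the fibril-associated *Col16a1* (0.29). Their differences were thus well under those of the type I chains.

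The machinery that makes collagen was the list with the most calls. Of 30 genes for folding, processing and crosslinking, 19 were higher in males and none was lower, with a median of 0.55 against -0.01 for all genes. In the endoplasmic reticulum, the collagen chaperone *Serpinh1* (0.98 ± 0.19, adjusted p = 0.0211), the prolyl isomerase *Fkbp10* (0.96 ± 0.10, adjusted p = 5.70e-04) and the prolyl hydroxylase subunit *P4ha2* (1.33 ± 0.21, adjusted p = 0.00904) were higher. *Kdelr3*, a receptor that returns resident proteins to the endoplasmic reticulum, was at 52.2, 57.6, 43.3 and 48.7 CPM in males and 14.2, 17, 20.8 and 21.9 CPM in females (1.45 ± 0.14, adjusted p = 4.49e-04). The transcription factor *Creb3l1*, known to activate collagen genes in bone, was higher by 1.46 ± 0.15 (adjusted p = 9.69e-04). Outside the cell, *Adamts2*, which removes the amino-terminal propeptide, was at 643, 628, 659.6 and 650.3 CPM against 334, 291, 376 and 376 CPM (0.91 ± 0.09, adjusted p = 6.55e-04). The crosslinking enzyme *Lox* was at 335, 314, 264 and 292 CPM in males and 152, 89.6, 90.5 and 119 CPM in females, where females 1 and 4 had the most (1.42 ± 0.17, adjusted p = 0.00191). The lysyl hydroxylase *Plod2* had a negative difference and did not pass. It was at 5.39, 6.36, 4.86 and 5.8 CPM in males and 5.33, 8.07, 34.9 and 27.6 CPM in females, and females 3 and 4 stood far above all other mice (-1.76 ± 0.58, adjusted p = 0.133).

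**Figure D2:**
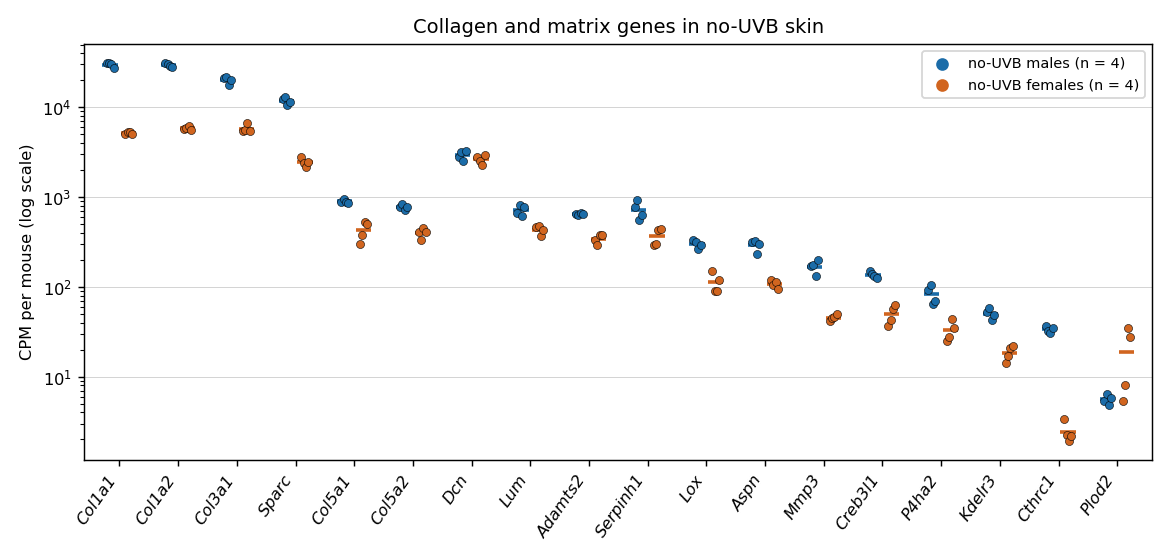
CPM per mouse on a log axis for matrix genes in unirradiated skin, with 1 point per mouse (4 males, 4 females). Short bars are group means. The male points of *Col1a1*, *Sparc*, *Cthrc1* and *Mmp3* sit above all female points, those of *Dcn* mix with them, and females 3 and 4 stand apart for *Plod2*.

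The rest of the matrix differed less. Among 11 proteoglycans, 5 were higher and none lower, and all 11 had a positive difference. The small leucine-rich members *Aspn* (1.43 ± 0.11, adjusted p = 8.12e-05), *Podn* (0.91 ± 0.08, adjusted p = 2.58e-04), *Lum* (0.74 ± 0.12, adjusted p = 0.00743) and *Omd* (0.68 ± 0.14, adjusted p = 0.0258), which bind collagen fibrils, were among them. *Dcn*, the most studied of that family, was at 2820.5, 3187, 2517 and 3278 CPM in males and 2777, 2516, 2260.1 and 2938 CPM in females and did not pass (0.17 ± 0.13, adjusted p = 0.509). Of 17 elastic fibre genes, 2 were higher, *Mfap2* (1.17 ± 0.12, adjusted p = 7.63e-04) and *Ltbp1* (0.38 ± 0.08, adjusted p = 0.0265), a microfibril protein and a store of latent TGF-beta. Elastin itself, *Eln*, overlapped between the sexes (0.27 ± 0.18, adjusted p = 0.446), as did *Fbn2* (0.73 ± 0.32, adjusted p = 0.234) and *Fbln5* (-0.20 ± 0.10, adjusted p = 0.298). None of 8 hyaluronan genes was called, although all 8 differences were negative (median -0.08).

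Of 22 matrix glycoproteins, 2 were higher and 1 was lower, against 4.98% and 3.49% of all autosomal genes. *Tgfbi* (0.61 ± 0.09, adjusted p = 0.00607) did not overlap, while *Ecm1* (0.28 ± 0.09, adjusted p = 0.0987) and *Thbs2*, which was lower in males (-0.78 ± 0.21, adjusted p = 0.0751), did. The basement membrane list of 19 genes had 4 higher and 1 lower. *Col4a3* was at 18.5, 16.2, 15.6 and 16.1 CPM in males and 5.82, 6.25, 6.75 and 9.58 CPM in females (1.23 ± 0.15, adjusted p = 0.00133), and its head-to-head neighbour *Col4a4* differed by 0.80 ± 0.15 (adjusted p = 0.0153). Laminin chains split, with *Lamb2* higher (0.41 ± 0.08, adjusted p = 0.02) and *Lamb1* lower in males (-0.39 ± 0.08, adjusted p = 0.0256). Without males 1 and 2, 1 basement membrane gene, 3 proteoglycans and 1 of the other interstitial collagens were called higher.

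Of 20 metalloproteinases and inhibitors, 6 were higher and none lower (median 0.17). *Mmp3*, stromelysin, was at 171, 174, 132 and 197 CPM in males against 42, 44.8, 45.9 and 49.5 CPM in females, a 3.7-fold ratio of means (1.89 ± 0.11, adjusted p = 1.34e-05). The gelatinase *Mmp2* was at 661, 649, 755 and 832 CPM against 506, 377, 352 and 439 CPM (0.79 ± 0.13, adjusted p = 0.00782). *Mmp23* (0.97 ± 0.13, adjusted p = 0.00325) and *Mmp27* (0.62 ± 0.08, adjusted p = 0.00149) completed those with the smallest p, and none of these 4 overlapped. General fibroblast markers moved less: of 7 such genes, *Twist2* (0.56) and *Lum* were called higher, and their summed level was 4210 to 5490 CPM in males and 3680 to 4900 CPM in females. The part of fibroblast number in the collagen difference was not tested.

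The genes with the largest differences in favour of males were mostly low in females. *C7* (ENSMUSG00000079105.5, chromosome 15 from 5017233 to 5093252), a component of the membrane attack complex of complement, was at 239.9, 175, 144 and 195 CPM in the males and 2.25, 3.83, 4.98 and 5.18 CPM in the females. Its fitted log2 difference of 5.53 ± 0.26 (adjusted p = 1.34e-05) was a 46.3-fold difference, while the other 11 complement genes tested did not pass. *Cthrc1*, a secreted protein of matrix-making fibroblasts, was at 36.7, 32.1, 30.3 and 35.3 CPM in males and 3.39, 2.26, 1.94 and 2.17 CPM in females (3.79 ± 0.16, adjusted p = 5.11e-07). The galanin neuropeptide gene *Gal* had 12 to 144 counts in males and 0 to 2 counts in females, so that its male mean was at least 28.6-fold higher than the floor of 3 counts per library. Male 1 had 6.75 CPM of it and male 4 had 0.689 CPM, so the males themselves spread widely (adjusted p = 0.00856).

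*Tdo2*, which opens the kynurenine pathway of tryptophan breakdown, was at 16.1, 11.2, 3.9 and 7.29 CPM in males and 0.309, 0.0807, 0.902 and 1.35 CPM in females (3.89 ± 0.65, adjusted p = 0.0134). *Hapln4*, a link protein between hyaluronan and proteoglycans, was at 3.05, 4.12, 1.97 and 1.32 CPM against 0.353, 0.0807, 0.334 and 0.155 CPM (3.45 ± 0.47, adjusted p = 0.00294). Others among the 10 largest belong to families of close copies, namely the protease inhibitor *Serpina3m* (3.33 ± 0.41), the tissue kallikrein *Klk1* (3.33 ± 0.52) and the cytochrome P450 *Cyp2b23* (2.89 ± 0.32). Reads that map to several places were not counted, so that the levels of such genes are uncertain. The remaining names are *Fos*, given below with the early-response genes, and the predicted gene 4930426D05Rik, which is not described.

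Called genes of the immune cell and interferon lists were all lower in males. Of 36 interferon response genes tested, 15 were lower in males and none was higher, 34 had a negative difference and the median was -0.61. For 11 of the 36, every male was below every female, against 6.04% of all genes. Their summed level was 979 to 1060 CPM in the males and 1340 to 1690 CPM in the females. The immunity-related GTPase *Irgm1* was at 40.3, 41.1, 44.4 and 39.5 CPM in males and 55.7, 56.7, 53.9 and 64.5 CPM in females (-0.48 ± 0.07, adjusted p = 0.00475). The guanylate-binding protein *Gbp3* was at 28.8, 31.1, 31.9 and 32.5 CPM against 48.7, 43.6, 39.4 and 43.5 CPM (-0.49 ± 0.08, adjusted p = 0.00552). In both genes the groups were close but apart. *Ifi47* (-0.65 ± 0.11, adjusted p = 0.00825) and *Gbp7* (-0.42 ± 0.08, adjusted p = 0.0163), GTPases of the same kind, were likewise lower.

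Antiviral genes of the list differed more but were uneven among the females. *Mx1*, an antiviral GTPase, was at 4.97, 5.52, 7 and 4.54 CPM in males and 8.33, 8.27, 23 and 17.8 CPM in females (-1.38 ± 0.35, adjusted p = 0.0663). *Rsad2* was at 8.11, 9.07, 6.78 and 6.14 CPM against 12.1, 10.4, 18.2 and 18.5 CPM (-0.97 ± 0.21, adjusted p = 0.0294), and *Ifit1* at 8.63, 12.7, 10.8 and 12 CPM against 14.2, 16.2, 26.3 and 32.5 CPM (-1.02 ± 0.27, adjusted p = 0.0689). Females 3 and 4 held the higher values of all 3 genes. The transcription factor *Irf7* was at 25.7, 33.7, 25 and 30.4 CPM in males and 25.5, 29.9, 70.8 and 75.3 CPM in females and did not pass (-0.81 ± 0.36, adjusted p = 0.246), nor did *Oas1a* (-0.89 ± 0.39, adjusted p = 0.245). With females 3 and 4 both left out, the differences of *Irf7* (0.05) and *Oas1a* (0.03) were slightly positive, although 17 genes of the list were then called lower and the median was -0.37. Without males 1 and 2, 5 genes of the list were called, and leaving out 1 mouse at a time gave 6 to 18.

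Promoters of 26 interferon list genes were found in RefSeq's table. The interferon-stimulated response element was taken as GAAA followed after 2 bases of any kind by GAAA. It occurred on either strand in 15 of the 26 genes (57.7%), against 3.99% of the 27025 genes with a promoter. The list holds interferon response genes whether called or not, so this share describes the list and not the difference between the sexes. The windows run from 250 bases before to 50 after the start, on GRCm38.p6. The 250 bases upstream of the RefSeq start are shown for 4 genes called lower in males, with the element in capitals. Overlapping matches run together. That start lay 917 bases from the annotated gene start for *Irgm1*, 74 for *Gbp3*, 18 for *Ifit1* and 0 for *Rsad2*. Each printed stretch was found by sequence on GRCm39: *Irgm1* at chr11:48762248-48762497, reverse strand, *Gbp3* at chr3:142265555-142265804, forward strand, *Rsad2* at chr12:26506452-26506701, reverse strand and *Ifit1* at chr19:34618039-34618288, forward strand.
Irgm1: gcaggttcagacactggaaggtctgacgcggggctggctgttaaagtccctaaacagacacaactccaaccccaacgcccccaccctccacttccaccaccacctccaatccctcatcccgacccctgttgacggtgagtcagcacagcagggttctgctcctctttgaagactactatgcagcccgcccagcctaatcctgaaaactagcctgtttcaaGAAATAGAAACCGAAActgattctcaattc
Gbp3: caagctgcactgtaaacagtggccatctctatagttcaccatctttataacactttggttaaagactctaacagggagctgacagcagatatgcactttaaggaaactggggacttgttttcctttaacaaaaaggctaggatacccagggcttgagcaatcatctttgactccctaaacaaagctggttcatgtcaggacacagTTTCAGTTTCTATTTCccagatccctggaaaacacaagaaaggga
Rsad2: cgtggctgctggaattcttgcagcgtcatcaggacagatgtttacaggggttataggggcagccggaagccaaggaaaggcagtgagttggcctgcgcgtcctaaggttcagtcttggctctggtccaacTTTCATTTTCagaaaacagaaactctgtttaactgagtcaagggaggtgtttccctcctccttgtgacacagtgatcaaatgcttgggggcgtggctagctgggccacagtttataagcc
Ifit1: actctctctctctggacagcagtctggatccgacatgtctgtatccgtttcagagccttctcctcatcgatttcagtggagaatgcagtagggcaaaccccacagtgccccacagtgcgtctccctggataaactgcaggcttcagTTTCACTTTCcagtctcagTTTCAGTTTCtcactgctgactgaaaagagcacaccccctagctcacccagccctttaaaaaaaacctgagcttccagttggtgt
The other motifs searched on both strands were the gamma-activated site TTCNNNGAA (7 of 26, 26.9%, against 9.55% of all), CCAAT, the cAMP response element TGACGTCA, the AP-1 site TGANTCA (7 of 26, 26.9%, against 8.97% of all), the sterol regulatory element TCACNCCAC, the unfolded protein response element TGACGTGG and the oestrogen response element, taken as GGTCA and TGACC with 3 bases of any kind between them. A match of letters describes the sequence and does not show that a factor binds there.

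Genes of lymphocytes and dendritic cells were lower in males in smaller numbers. All 15 T cell genes had a negative difference (median -0.68), and 3 were called, all parts of the receptor complex: *Cd3e* (-0.66 ± 0.18, adjusted p = 0.0739), *Cd3g* (-0.57 ± 0.16, adjusted p = 0.0736) and *Cd247* (-0.53 ± 0.16, adjusted p = 0.092). *Cd3e* was at 10.1, 8.18, 8.84 and 6.03 CPM in males and 16.3, 14.6, 11 and 10.5 CPM in females, where females 1 and 2 held the most and females 3 and 4 lay just above the highest male. The list sum was 106 to 148 CPM in males and 128 to 282 CPM in females, and these ranges overlap. The count changed with the mice kept: none of the 15 was called without female 1, without female 2, without male 2 or without male 4. Without females 3 and 4, 14 were called. With 1 mouse left out, the list median stayed negative, from -0.80 without female 3 to -0.45 without female 1. Of 10 gamma delta T cell genes only *Trgc4*, a constant segment with close copies, was lower (-0.77 ± 0.21, adjusted p = 0.0741), and *Trdc* overlapped (-0.27 ± 0.15, adjusted p = 0.336).

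*Flt3*, the receptor that sustains dendritic cells, was lower in males by 0.80 (adjusted p = 0.0079), at 10.2, 9.07, 7.05 and 8.44 CPM against 15.4, 17, 15.6 and 12.4 CPM. *Xcr1* (-1.32 ± 0.34, adjusted p = 0.0622) and *Clec9a* (-1.01 ± 0.29, adjusted p = 0.0841), markers of cross-presenting dendritic cells, were the other 2 of 11 genes called. *Cd207*, which marks Langerhans cells, did not pass (-0.46 ± 0.20, adjusted p = 0.227). Of 10 MHC class II genes, all negative, *H2-Ob* (-0.58 ± 0.16, adjusted p = 0.0686) and the transactivator *Ciita* (-0.47 ± 0.13, adjusted p = 0.0769) were called. Leaving out 1 mouse gave 0 to 5 calls among the MHC class II genes and 1 to 4 among the dendritic cell genes.

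Mast cell genes gave 3 lower of 13, the protease *Cpa3* (-0.49 ± 0.12, adjusted p = 0.0521), the receptor *Mrgprb1* (-0.47 ± 0.11, adjusted p = 0.044) and the prostaglandin synthase *Hpgds* (-0.39 ± 0.08, adjusted p = 0.0276). Without male 2 the count was 1, and without female 3 it was 6. Of 21 macrophage genes only *Cx3cr1* was called (-0.57 ± 0.15, adjusted p = 0.061), with a list median of -0.04. None of 6 NK cell genes passed, nor did any of the 6 of 13 neutrophil genes and the 6 of 12 B and plasma cell genes that could be tested. Of 23 chemokines tested, *Ccl2*, which draws monocytes, was at 3.89, 3.46, 4.95 and 4.59 CPM in males and 7.76, 6.57, 9.59 and 6.89 CPM in females (-0.87 ± 0.16, adjusted p = 0.0141). *Ccl20* (-1.34 ± 0.32, adjusted p = 0.0428), the ligand of Ccr6, and the eosinophil attractant *Ccl11* (-0.60 ± 0.18, adjusted p = 0.0956) were also lower, and none was higher. Without males 1 and 2 none of the 23 was called, and without females 3 and 4, 9 were lower.

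**Figure D3:**
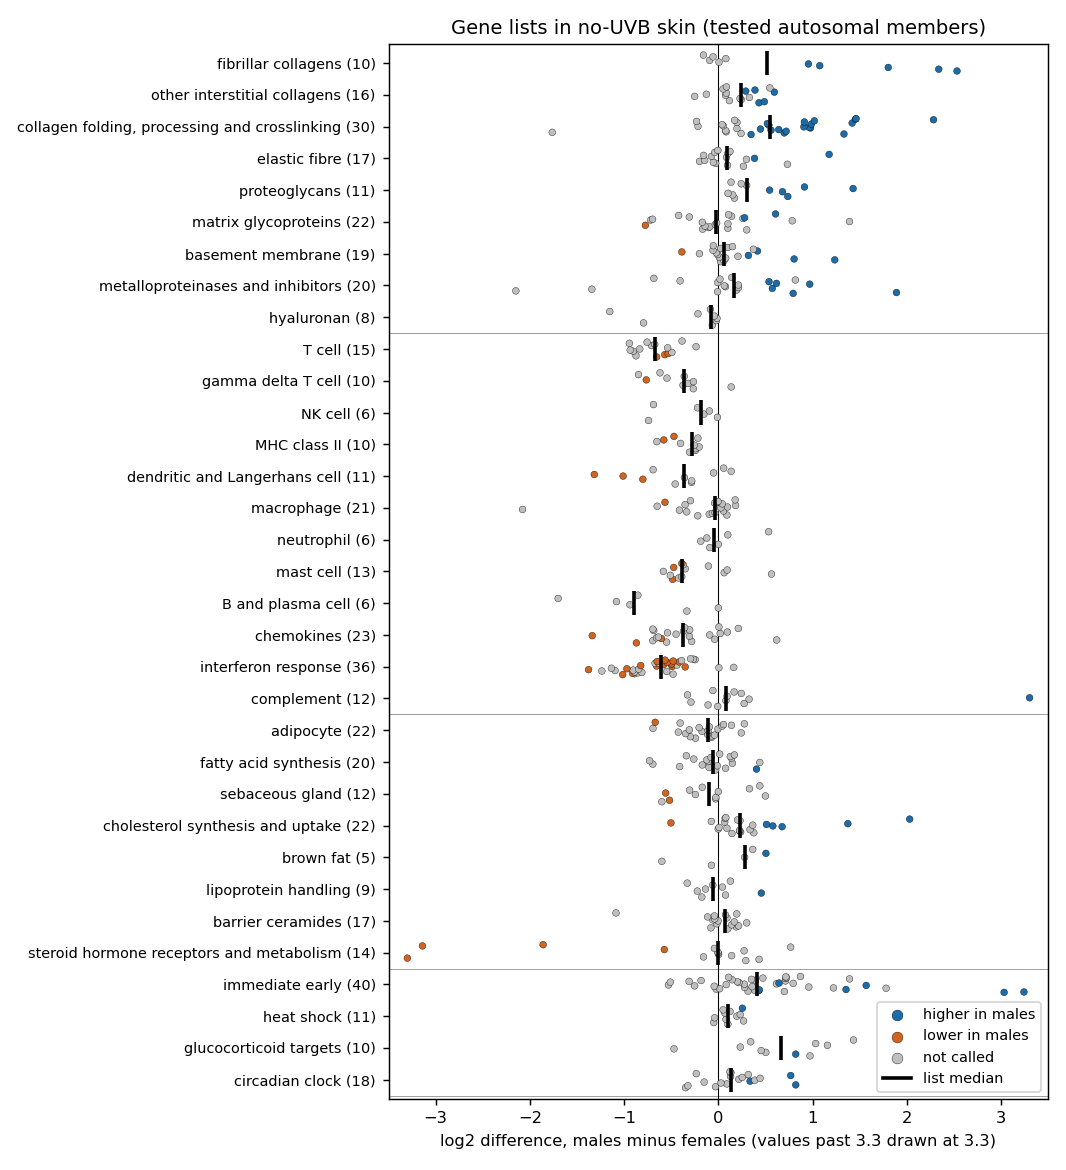
Log2 differences of males minus females (horizontal axis) for the tested members of gene lists (vertical axis), with 1 point per gene, called genes in colour, the list median as a bar and values past the axis limit drawn at its edge. The collagen folding list lies mostly right of 0 with a median of 0.55, and the interferon list lies mostly left of it with a median of -0.61.

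Lipid genes showed little common direction. Of 22 adipocyte genes, 1 was lower, the glycerol channel *Aqp7* (-0.67 ± 0.15, adjusted p = 0.0355), and *Adipoq* overlapped (-0.24 ± 0.18, adjusted p = 0.484). Of 20 fatty acid synthesis genes only *Acacb* was called, higher in males (0.40 ± 0.11, adjusted p = 0.077). *Fasn* was at 1034, 2286, 1181 and 1239.9 CPM in males and 564, 1271, 1536 and 2783 CPM in females (-0.10 ± 0.45, adjusted p = 0.934). Male 2 stood above the other males and the females spanned a wider range still, and the sign of this small difference depended on which mice were kept. *Scd1* did not pass (-0.41 ± 0.25, adjusted p = 0.395). Among 12 sebaceous gland genes, *Acsbg1* (-0.56 ± 0.15, adjusted p = 0.0692) and *Soat1* (-0.52 ± 0.16, adjusted p = 0.0987), which activate fatty acids and esterify cholesterol respectively, were lower. The melanocortin receptor *Mc5r* did not pass (0.50 ± 0.16, adjusted p = 0.117), nor did any of 17 barrier ceramide genes. *Vldlr* (0.45 ± 0.06, adjusted p = 0.00366) was the only 1 of 9 lipoprotein genes called and *Cox7a1* (0.50 ± 0.15, adjusted p = 0.0925) the only 1 of 5 brown fat genes.

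Of 22 genes of cholesterol synthesis and uptake, 5 were higher in males and 1 was lower, with a median of 0.22. *Hsd17b7*, which acts in the late steps of the pathway, was at 122, 101, 79.1 and 70.2 CPM in males and 33.4, 31.7, 45.5 and 33 CPM in females (1.37 ± 0.19, adjusted p = 0.00475). *Cyp51*, the lanosterol demethylase, was at 154, 159, 158 and 153 CPM against 91.5, 108, 124 and 95.7 CPM (0.58 ± 0.09, adjusted p = 0.00583). Neither gene overlapped, and the males were nearly equal for *Cyp51*. *Lss*, which closes the sterol rings, differed by 0.68 ± 0.12 (adjusted p = 0.0149) and *Msmo1* by 0.51 ± 0.11 (adjusted p = 0.0308). *Sc5d* was lower (-0.50 ± 0.15, adjusted p = 0.0987). Leaving out males 1 and 2 left 3 genes called higher.

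Of the cholesterol genes, 14 had a promoter in the table. All 14 held CCAAT, against 41.1% of all genes with a promoter, while the letters of the sterol regulatory element occurred in 1. All 7 MHC class II genes with a promoter held CCAAT as well. The RefSeq start lay 54 bases from the annotated gene start for *Cyp51* and 141 for *Lss*. The stretches before the start of *Cyp51* (chr5:4154698-4154947, reverse strand) and *Lss* (chr10:76367189-76367438, forward strand), as found on GRCm39, are given because both genes were called, with CCAAT on either strand in capitals.
Cyp51: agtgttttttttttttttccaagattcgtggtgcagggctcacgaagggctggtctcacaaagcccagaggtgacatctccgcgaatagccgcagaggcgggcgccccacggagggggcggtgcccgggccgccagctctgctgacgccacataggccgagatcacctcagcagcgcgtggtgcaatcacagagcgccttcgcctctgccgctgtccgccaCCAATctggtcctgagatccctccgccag
Lss: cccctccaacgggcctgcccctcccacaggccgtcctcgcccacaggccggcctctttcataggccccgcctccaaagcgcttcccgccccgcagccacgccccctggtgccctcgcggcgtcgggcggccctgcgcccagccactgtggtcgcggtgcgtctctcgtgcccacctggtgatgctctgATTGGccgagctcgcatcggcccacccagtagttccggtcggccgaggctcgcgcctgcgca

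The largest difference in favour of females was that of *Pgr*, the progesterone receptor and a textbook oestrogen target. It was at 0.281, 0.234, 0.394 and 0.287 CPM in males and 0.441, 1.13, 21.1 and 24.6 CPM in females. Females 3 and 4 carried nearly all of it, and females 1 and 2 had at most 1.13 CPM (-5.27 ± 1.42, adjusted p = 0.0821). *Greb1*, another oestrogen-regulated gene, had the same spread, at 0.469, 1.17, 0.438 and 0.919 CPM in males and 1.28, 1.61, 12.3 and 13.8 CPM in females (-3.28 ± 0.91, adjusted p = 0.0876). *Esr1*, an oestrogen receptor, did not pass (0.29 ± 0.18, adjusted p = 0.419). The stage of the cycle of these females was not given in the sources used here, and its part in *Pgr* and *Greb1* was not tested.

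Enzymes of the aldo-keto reductase family that act on steroids were lower in every male. *Akr1c14* was at 7.64, 14.8, 10.6 and 13.9 CPM in males and 54.3, 78, 99.7 and 181 CPM in females, an 8.82-fold fitted difference in favour of females (-3.14 ± 0.40, adjusted p = 0.00465). *Akr1c18*, which inactivates progesterone, was at 7.83, 13.3, 18.7 and 23.7 CPM against 30.6, 50.7, 90 and 57.9 CPM (-1.86 ± 0.40, adjusted p = 0.0381). These genes belong to a cluster of close copies, and reads shared among them were not counted. The side-chain cleavage enzyme *Cyp11a1* was lower by 0.57 (adjusted p = 0.0284).

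Other genes with the largest differences in favour of females came from separate families. The cytochrome P450 *Cyp2g1* was at 3.56, 2.38, 27.5 and 23.8 CPM in males and 111, 386, 235 and 102 CPM in females (-3.87 ± 0.83, adjusted p = 0.0373), with males 1 and 2 lowest. *Notum*, a secreted enzyme that inactivates Wnt ligands, was at 2.16, 2.43, 3.41 and 3.67 CPM against 13.1, 14, 17.3 and 8.96 CPM (-2.20 ± 0.23, adjusted p = 7.45e-04). *Acaa1b*, a thiolase of peroxisomal fatty acid oxidation, was at 8.77, 7.44, 7.97 and 12.9 CPM against 29.6, 48.7, 47 and 25 CPM (-2.03 ± 0.26, adjusted p = 0.00393). The genes of this ranking were chosen among those without overlap between the sexes. *Crp*, C-reactive protein, was at 0.234, 0.374, 0.263 and 0.287 CPM in males and 1.23, 1.33, 3.74 and 3 CPM in females (-2.99 ± 0.45, adjusted p = 0.00537). The remaining names were the P450 gene *Cyp2j7* (-2.95 ± 0.46, adjusted p = 0.00753), which has close copies, the channel-family gene *Ano4* (-2.21 ± 0.46, adjusted p = 0.025) and the phosphatase *Ptpn5* (-2.23 ± 0.64, adjusted p = 0.0925). *Hamp2*, a hepcidin gene, was below all females in every male but did not pass (-1.23 ± 0.37, adjusted p = 0.11). *Pmel*, of the pigment organelle, was the only 1 of 6 melanocyte genes called (-1.38 ± 0.39, adjusted p = 0.0859), with female 1 at 16.5 CPM and the other females at 4.78 to 6.42 CPM.

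Early-response genes differed most in males 1 and 2. *Fos* was at 149, 254, 36.2 and 27.3 CPM in males and 11.2, 14.9, 16.5 and 14.5 CPM in females (3.03 ± 0.70, adjusted p = 0.0517). Males 1 and 2 were far above males 3 and 4, which still lay above every female. *Fosb* was at 119, 158, 15.3 and 29.6 CPM in males and 5.2, 17.6, 6.78 and 4.19 CPM in females (3.24 ± 0.81, adjusted p = 0.066), and here female 2 exceeded male 3. *Egr1*, another immediate early transcription factor, was at 151, 183, 75 and 48.9 CPM against 46.3, 47.3, 49.8 and 36 CPM (1.35 ± 0.38, adjusted p = 0.0929). The phosphatase *Dusp1*, which shuts off MAP kinases, was at 264, 359, 95.5 and 95.5 CPM in males and 70.9, 51.2, 68.9 and 83.8 CPM in females (1.57 ± 0.45, adjusted p = 0.0936), again with males 1 and 2 highest. *Atf3* (1.78 ± 0.59, adjusted p = 0.137) and *Ccn1* (1.39 ± 0.41, adjusted p = 0.103) did not pass.

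Of 40 immediate early genes tested, 7 were higher, none was lower and 33 had a positive difference (median 0.41). The others called were *Klf4* (0.64 ± 0.14, adjusted p = 0.0327), *Jund* (0.43 ± 0.11, adjusted p = 0.0475) and *Jun* (0.42 ± 0.11, adjusted p = 0.061). Their summed level was 2540 to 4580 CPM in males and 2210 to 2450 CPM in females. The count moved strongly with single mice: 1 gene was called higher without male 1, 0 without male 2, 15 without male 3 and 10 without male 4. Leaving out female 1, 3 or 4 left 3 called higher and leaving out female 2 left 4, while 1 was called lower without female 3. With females 3 and 4 both left out, 0 were called higher and 3 lower. With males 1 and 2 both left out, 1 was called. Whether handling or time of collection differed between mice is not given in the sources used here, and their part was not tested.

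**Figure D4:**
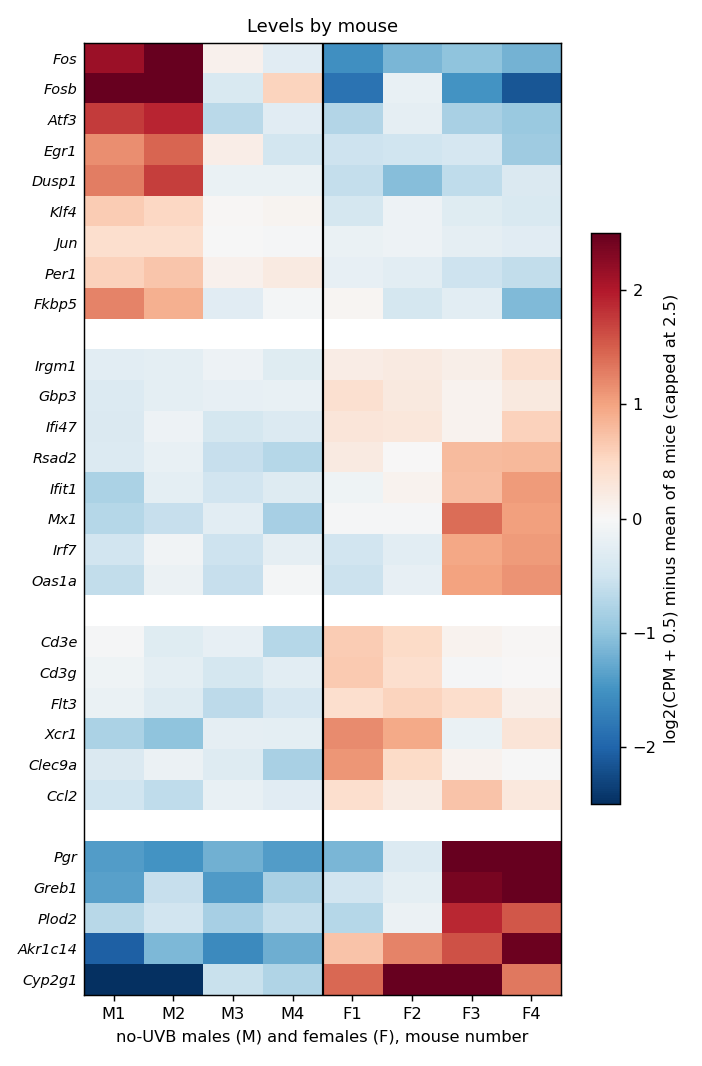
Colour map of log2 CPM minus the mean of the 8 mice (colour scale, capped at both ends) for named genes (vertical axis) in each male and female mouse (horizontal axis). The blocks hold early-response, interferon and immune genes, and last *Pgr*, *Greb1*, *Plod2*, *Akr1c14* and *Cyp2g1*. Males 1 and 2 stand above males 3 and 4 for *Fos* and *Dusp1*, and females 3 and 4 stand above females 1 and 2 for *Pgr*, *Greb1*, *Plod2* and *Mx1*.

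The clock gene *Per1*, also a glucocorticoid target, was more even. It was at 272, 293, 197 and 212 CPM in males and 157, 150.3, 126 and 118 CPM in females, with no overlap (0.82 ± 0.14, adjusted p = 0.0114). Of 18 clock genes, *Ciart* (0.77 ± 0.18, adjusted p = 0.045) and *Cry2* (0.34 ± 0.09, adjusted p = 0.0596) were also higher and *Nr1d2* did not pass (0.22 ± 0.08, adjusted p = 0.141). Without male 2 or without male 4, 1 clock gene was called higher. Of 10 glucocorticoid targets only *Per1* was called, although the median was 0.66 (0.10 without males 1 and 2). *Fkbp5*, a co-chaperone of the glucocorticoid receptor, was at 236, 185, 81.6 and 96.4 CPM in males and 103, 73.3, 82.8 and 45.9 CPM in females and did not pass (0.97 ± 0.37, adjusted p = 0.189), with males 1 and 2 highest. Of 11 heat shock genes 1 was called, *Bag3* (0.25).

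Markers of other cell types were read beside these results. Skeletal muscle was the only such list with more than 2 calls: 7 of 20 genes were higher in males, 12 had every male above every female, and the median was 0.45. Over all autosomal genes, 4.98% were called higher and 6.9% had every male above every female. Of the muscle genes, *Ckm* (0.60 ± 0.14, adjusted p = 0.0373), *Myl1* (0.76 ± 0.15, adjusted p = 0.0182) and *Pvalb* (0.73 ± 0.14, adjusted p = 0.0177), which serve energy supply, contraction and calcium buffering, were among those called. The summed level was 33500 to 39600 CPM in males and 21300 to 31700 CPM in females, and these ranges do not overlap. Without males 1 and 2 none of the 20 was called, without male 2 alone 3 were, and without female 4 alone 11 were. None of 7 basal and 10 differentiated keratinocyte genes, 7 hair follicle stem cell genes or 26 cell cycle genes was called, nor any of the tested genes of pericytes, Schwann cells, red blood cells and growing hair, and of 12 endothelial genes *Kdr* was lower (-0.36). The part of these differences in composition in the matrix and immune results was not tested.

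Each mouse was left out in turn to see which named calls changed. Of the 100 called genes, 35 lost their call in at least 1 such fit, always with the same sign. These fits also hold fewer mice. *Col1a1*, *Col1a2*, *Col3a1*, *Col5a1*, *Col5a2*, *Sparc*, *Lox*, *Mmp3* and *Aspn* were called in every alternative, as were *C7*, *Cthrc1*, *Akr1c14*, *Notum*, *Acaa1b*, *Irgm1*, *Gbp3*, *Ifi47*, *Flt3*, *Hsd17b7*, *Cyp51* and *Per1*. Among the matrix genes, *Thbs2* (highest adjusted p 0.181) and *Ecm1* (0.226) lost their calls. Of the immune genes, *Cd3e* reached an adjusted p of 0.177 when male 2 was left out, and *Cd3g* 0.171, *Cd247* 0.2, *H2-Ob* 0.152, *Ciita* 0.199, *Xcr1* 0.166, *Clec9a* 0.188, *Ccl11* 0.212, *Mx1* 0.17 and *Ifit1* 0.17 at their highest. Of the early-response genes, *Fos* reached 0.126, *Fosb* 0.164, *Egr1* 0.215, *Dusp1* 0.212, *Jun* 0.164, *Jund* 0.126 and *Klf4* 0.101. *Pgr* reached 0.207 and *Greb1* 0.2, each lost without female 3, without female 4 or without any of the 4 males. The remaining genes that lost a call were *Ptpn5*, *Mrgprb1*, *Cpa3*, *Ccl20*, *Acsbg1*, *Soat1*, *Akr1c18*, *Ciart*, *Cry2*, *Ckm*, *Pmel*, *Aqp7*, *Cx3cr1* and *Trgc4*, with highest adjusted p from 0.105 to 0.213.

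The UVB mice repeat the contrast of males and females in other animals after irradiation. In a fit of these 8 mice alone, 2009 of 15890 autosomal genes (12.6%) were higher in males and 2034 (12.8%) lower. Of the 808 genes higher in No-UVB males, 782 could be tested there, 203 of them (26.0%) were called higher again and 26 (3.32%) were called lower. Of the 566 lower genes, 555 could be tested, 314 (56.6%) were called lower again and 9 (1.62%) higher. The median log2 difference went from 0.49 to 0.11 over the higher genes and from -0.56 to -0.41 over the lower genes.

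The test of the difference between both contrasts, the interaction of sex and UVB over all 16 mice, called 1181 of 16783 genes (7.04%). It called 325 of the 782 higher genes and 55 of the 555 lower ones. These counts share the No-UVB mice that chose the genes, so they are given as a description.

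**Figure D5:**
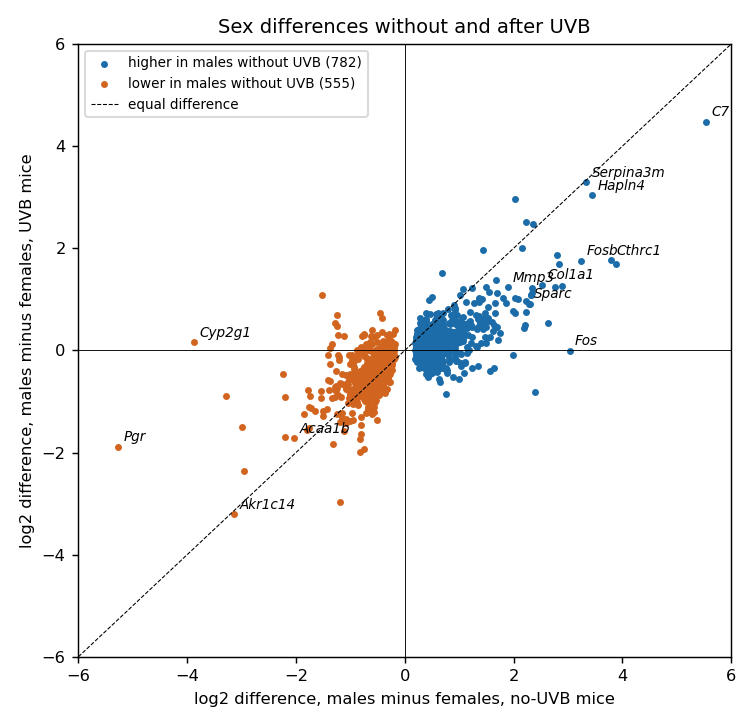
Log2 difference of males minus females in UVB mice (vertical axis) against that in No-UVB mice (horizontal axis) for the 1337 autosomal genes called in No-UVB mice and tested in both, with the line of equal differences. Genes higher in males lie mostly under that line, with a UVB median of 0.11, and genes lower in males lie on both sides of it, with a UVB median of -0.41.

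Type I collagen kept its direction after UVB at a smaller size. *Col1a1* was at 8164, 7841, 11626 and 8679.8 CPM in UVB males and 2416, 4979.7, 3406 and 4053 CPM in UVB females, a difference of 1.29 ± 0.22 (adjusted p = 0.00423). Its interaction was -1.25 ± 0.26 (adjusted p = 0.0216). *Sparc* had a UVB difference of 0.91 ± 0.17 (adjusted p = 0.00732) and an interaction of -1.38 ± 0.22 (adjusted p = 0.00739), and *Cthrc1* 1.76 ± 0.32 (adjusted p = 0.00874) and -2.04 ± 0.40 (adjusted p = 0.0184). Of the 29 folding and processing genes tested there, 11 were called higher and 2 lower in UVB males. *C7* remained far higher in males, at 64.6, 89.5, 86.9 and 88.8 CPM against 4.58, 3.85, 3.3 and 3.12 CPM (4.47 ± 0.15, adjusted p = 1.04e-08). *Col4a3* had nearly the same difference in both treatments, 1.23 in No-UVB and 1.23 in UVB mice (interaction adjusted p = 0.976).

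In UVB mice 25 of 36 interferon genes and 12 of 15 T cell genes were lower in males. So were all 10 MHC class II genes and 9 of 11 dendritic and Langerhans cell genes. None of these 4 lists had a higher gene. Other immune lists differed: of 6 neutrophil genes tested, 4 were higher and 0 lower in UVB males. Of 20 macrophage genes, 3 were higher and 3 lower. *Akr1c14* was at 2.95, 3.08, 3.58 and 11.4 CPM in UVB males and 64.5, 51.5, 32.5 and 42.7 CPM in UVB females (-3.20 ± 0.46, adjusted p = 0.0051). *Notum* differed by -1.70 ± 0.28 (adjusted p = 0.00437) and *Acaa1b* by -1.72 ± 0.12 (adjusted p = 3.29e-05). *Ccl2* had a UVB difference near 0 (0.00 ± 0.16, adjusted p = 0.996), with an interaction of 0.86 ± 0.24 (adjusted p = 0.0611), and the difference of *Cyp2g1* was 0.16 ± 0.71 (adjusted p = 0.899).

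*Fos* had a UVB difference of -0.01 ± 0.31 (adjusted p = 0.988) and an interaction of -3.05 ± 0.83 (adjusted p = 0.0654). *Fosb* had 1.76 ± 1.05 (adjusted p = 0.298) and -1.50 ± 1.35 (adjusted p = 0.562), and *Per1* -0.14 ± 0.16 (adjusted p = 0.568) and -0.98 ± 0.23 (adjusted p = 0.0395). Of 22 cholesterol genes, 17 were called higher in UVB males, and of 22 adipocyte genes 16 were called lower. Of the 20 muscle genes, 0 were higher and 3 lower in UVB males, and the interaction called 11 of the 20.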

How the data were processed

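RNA of whole dorsal skin from 16 mice was sequenced by the authors with a directional polyadenylated RNA kit and 100-base reads, and the 8 No-UVB mice were used for the main comparison. The authors deposited 1 table of whole-number counts per mouse, without normalization, made with STAR on GRCm39, and versions are not given in the sources used here. Of the 3 count columns, that of the kit's strand was used, since the other strand held 3.63 to 4.23% of gene reads. Reads outside genes made up 9.35 to 15.0% of the No-UVB libraries and were left out. Multi-mapping reads were listed as 0. Names came from GENCODE M39, which holds 54749 of 55359 identifiers.

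Genes were kept by filterByExpr, scaled by TMM and tested with edgeR's quasi-likelihood test (edgeR 4.0.16, limma 3.58.1, R 4.3.3) between 4 males and 4 females, with no covariate and Benjamini-Hochberg adjustment over all genes tested. The SE is the log2 difference divided by the square root of the F statistic. The UVB mice were fitted apart, and the interaction over all 16 mice. For single genes the study states an adjusted p of 0.1 together with an apeglm-shrunken log fold change larger than 1. The calls here use the adjusted p alone. With DESeq2 and apeglm-shrunken log2 differences past 1, 128 autosomal genes were higher and 42 lower in No-UVB males. Per-gene RPKM used summed exon length. Libraries of a group differed by more than sampling noise (chi-square per degree of freedom 9.54 to 60.4). DESeq2 1.42.0 and apeglm 1.24.0 served as alternatives, and tables were made with pandas 2.3.3 in Python 3.11.15 and figures with matplotlib 3.10.9. The procedure was tested on simulated counts.

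Named genes were the 10 largest differences in each direction (adjusted p under 0.1, mean of at least 1 CPM, no overlap), the 4 members of smallest p in each list with at least 2 calls, and fixed genes of the 4 topics, 106 in all. Another 21 were named after their values were seen, and 2 genes are not reported here. The genes, lists, motifs and tests were chosen with earlier results of these data known. Alternatives were other strand handling, scaling, filters, tools and thresholds, all 16 mice in 1 fit, a replicate block, thinned counts and each mouse left out. Leaving out males 1 and 2, or females 3 and 4, was added after seeing the data.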

Additional observations from a re-analysis of the deposited data

Results flagged for a closer look

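Over 254 groups of 4 mice (127 named genes in each sex), 10 held a mouse far from the other 3 by Dixon's test, and chance alone marks about 1 in 20 such groups. Among females, these were mouse 3 for *Col3a1* (highest, 6656 CPM), *H2-DMb1* (lowest, 57.6 CPM) and *Hsd17b7* (highest, 45.5 CPM), mouse 4 for *Ano4* (highest, 4.76 CPM) and mouse 1 for *Pmel* (highest, 16.5 CPM). Among males, these were mouse 2 for *Tgfbi* (lowest, 806 CPM), *Ccl20* (lowest, 0.281 CPM), *Fasn* (highest, 2286 CPM) and *Esr1* (highest, 89.2 CPM), and mouse 3 for *Zbtb46* (highest, 11.2 CPM). *Col3a1* and *Hsd17b7* were apart between the sexes all the same.

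For 32 of the 127 named genes, the sex difference after UVB differed from that without UVB in edgeR's interaction test at an adjusted p under 0.1. The values that follow are the difference after UVB minus that before on the log2 scale. Matrix genes were negative throughout, with *Cthrc1* at -2.04, *Sparc* at -1.38, *Col1a1* at -1.25, *Col1a2* at -1.23, *Creb3l1* at -1, *Omd* at -0.93, *P4ha2* at -0.93, *Kdelr3* at -0.90, *Aspn* at -0.90, *Mmp23* at -0.83, *Mmp27* at -0.72, *Col15a1* at -0.63, *Podn* at -0.59, *Lum* at -0.59 and *Lamb2* at -0.41. The early-response and clock genes were negative too, with *Fos* at -3.05, *Dusp1* at -1.98, *Egr1* at -1.67, *Per1* at -0.98, *Cry2* at -0.45 and *Nr1d2* at -0.36. So were the muscle genes *Pvalb* at -1.12, *Myl1* at -1.11 and *Ckm* at -0.94, as well as *Hamp2* at -2.40, *Cyp2b23* at -1.66 and *C7* at -1.07. Positive values were those of *Cyp2g1* at 4.02, *Mx1* at 1.42, *Ccl2* at 0.86, *Soat1* at 0.82 and *Hpgds* at 0.49. The No-UVB mice that chose most of these genes also enter this test.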

How the results depend on the processing

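Against 808 higher and 566 lower autosomal genes, scaling by DESeq2's size factors, upper quartiles or without the top genes, counting without regard to strand, other filters on low counts, thinned counts and adjustment over autosomal genes alone gave 761 to 844 higher and 521 to 586 lower. DESeq2's Wald test called 1147 and 811, and all 16 mice in 1 fit 1212 and 760. An adjusted p under 0.05 left 478 higher, 256 lower and 248 found again in UVB mice. With 1 mouse left out the counts ran from 393 to 923 higher, from 228 to 647 lower, from 50 to 114 lower past 1 log2 and from 297 to 551 found again in UVB mice. The lowest came without male 2, and males 1 and 4 and female 2 also moved a count by over 1.5 times: without them 491, 526 and 539 genes were higher and 269, 267 and 356 lower. Without males 1 and 2 there were 290 higher, 102 lower, 29 lower past 1 log2 and 190 found again in UVB mice, with 74% of calls higher against 58.8%. Without females 3 and 4 there were 877 lower, 225 of them past 1 log2. The 92 genes lower past 1 log2 became 59 with at least 10 counts in every mouse, 48 at an adjusted p under 0.05 and 42 with apeglm-shrunken differences. The cause of these shifts was not tested, beyond the fewer mice or genes that the settings use.

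The deviations of same-numbered males and females correlated at 0.094, -0.17, 0.019 and 0.061 over genes, and those of differently numbered ones at -0.15 to 0.24. With 4 mice per group, these values cannot settle whether the replicate numbers pair the mice. A replicate block gave 714 higher and 506 lower. Signs turned for 3 named genes, none of them called: *Fasn* was at 0.0512 under the block, from -0.417 to 0.352 with 1 mouse left out (positive without female 4 or without male 1) and 0.644 without females 3 and 4, where *Irf7* was at 0.0474 and *Oas1a* at 0.0301. Of 100 named calls, 44 held under every alternative. With 4 mice per group, 3372 genes had an unadjusted p under 0.05.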
